A study of Mus musculus with 4 samples.

Results

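The complement and acute phase genes were followed in the mouse parietal peritoneum, the membrane that lines the abdominal wall, after repeated chemical injury. Skeletal muscle markers were bright on every array, so the samples held muscle RNA beside that of the membrane. They were chosen by name: 38 genes of the classical, alternative, lectin and terminal arms of complement, its regulators and receptors, and the acute phase plasma proteins. Of these, 34 had a probe set that matches a single gene, among 18193 named genes measured in all. C4b was left out because its probe set is shared with C4a. The other 3, C3, Cfd and C7, have no single-gene probe set in the annotation used here and were not analysed here. The alternative arm is thus read from 2 of 4 listed genes and the terminal arm from 2 of 3.

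Complement is a cascade of serum proteases and binding proteins that coats targets, calls in leukocytes and can end in a pore through a target membrane. Its classical arm starts with C1q bound to antibody, its lectin arm with ficolins or mannose-binding lectin on sugars, and its alternative arm amplifies both through factor B. Acute phase proteins are plasma proteins made mainly by the liver under interleukin 6 and interleukin 1, and many of them are also made by macrophages, fibroblasts and fat in inflamed tissue.

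RNA of 4 groups of C57BL/6J mice was measured on 1 Affymetrix array each. SAP-BNP-Tg mice, in which the serum amyloid P promoter drives brain natriuretic peptide, received either chlorhexidine gluconate (CG_Tg) or vehicle (PBS_Tg), and wild-type mice received either chlorhexidine gluconate (CG_WT) or vehicle (PBS_WT); Tg and WT name the genotypes. Chlorhexidine, an antiseptic used to injure the peritoneum, was injected into the abdominal cavity at 0.1% in 15% ethanol and 85% PBS, at 0.01 mL per g of body weight, 3 times per week for 21 days, and vehicle mice received ethanol in PBS. The serum amyloid P promoter is active mainly in liver. The number of mice behind each array is not given in the sources used here.

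With 1 array per group, no difference between a pair of groups has a replicate check. Signals are the deposited intensities scaled to a common trimmed mean, and a gene was called 2-fold higher or lower where the scaled signals differed at least 2-fold and the brighter array called it Present above the lowest 25% of its Present signals. The share of probe sets called Present was 53.5% in CG_Tg, 52.5% in PBS_Tg, 55.1% in CG_WT and 50.5% in PBS_WT. The PBS_WT array stood apart: its signal for 18S ribosomal RNA was 1052, against 81.5 to 108 elsewhere. Its actin signal from the 3' probe set was 5.81 times that from the middle probe set, against 2.23 to 2.84 times on the remaining 3. The part of this array's state in any wild-type difference was not tested, so the main values are also given against the vehicle array of the other genotype.

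Chlorhexidine-treated peritoneum had higher signals for most of the genes in both genotypes. In transgenic peritoneum, 8 of the 34 genes were 2-fold higher with chlorhexidine, against 2.67% of all named genes, and 0 were 2-fold lower, against 0.978%. In wild-type peritoneum, 11 were 2-fold higher, against 5.77%, and 1 was 2-fold lower, against 3.46%. Among the 12754 genes called Present on at least 1 array, the shares 2-fold higher were 3.81% in transgenic and 8.22% in wild-type peritoneum, and 31 of the 34 genes are in that set. The median log2 difference was 0.64 in transgenic and 0.67 in wild-type peritoneum, against -0.00 in Tg and -0.03 in WT over all named genes. The difference lay above 0 for 27 of 34 genes in each genotype and had the same sign in both for 28.

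The genes that were 2-fold higher in both genotypes were C1s1, Cfb, Fcna, C3ar1, C5ar1 and Saa3, 6 of 34 against 2.13% of all named genes. They comprise a classical arm protease, the alternative arm protease, a ficolin, both anaphylatoxin receptors and a local serum amyloid. Against the vehicle array of the other genotype, 12 genes were 2-fold higher in CG_Tg and 6 in CG_WT, of which 7 in CG_Tg and 4 in CG_WT were also called within the genotype. Of the 18193 named genes, 659 were higher in CG_Tg and 922 in CG_WT in this comparison. With each array centred on its median, 5 genes, C1qa, Cfb, C3ar1, C5ar1 and Saa3, were 2-fold higher in wild-type peritoneum, against 723 of the 18193 named genes. In tissue RNA, more cells of a type and more RNA per cell cannot be told apart.

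**Figure D1:**
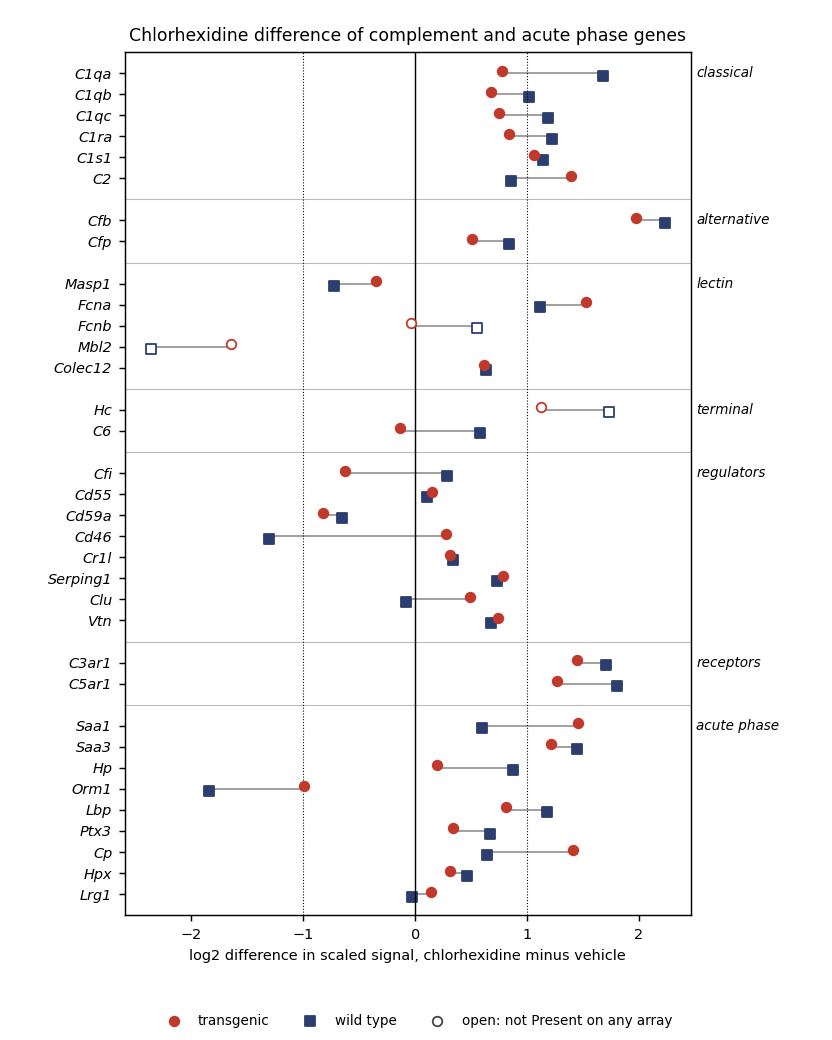
Log2 difference in scaled signal between chlorhexidine and vehicle for each of the 34 genes, grouped by arm, with circles for transgenic and squares for wild-type peritoneum; dotted lines mark 2-fold and open symbols mark genes not Present on any array. Symbols of the classical arm, Cfb, Fcna, the receptors and Saa3 lie well right of 0, and Orm1 lies left of it in both genotypes.

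**Figure D2:**
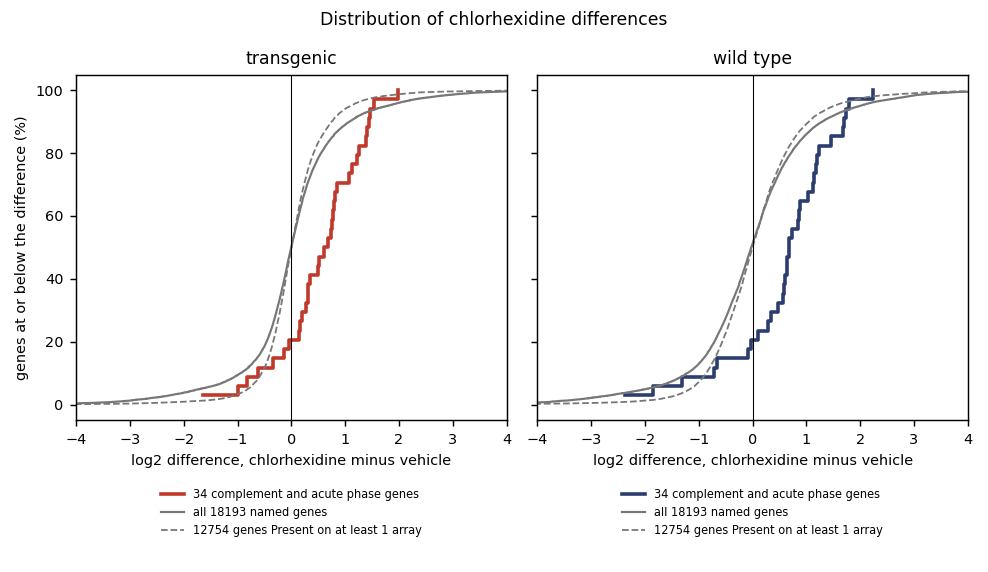
Cumulative share of genes, in percent, at or below each log2 difference between chlorhexidine and vehicle, for the 34 genes (step line), all 18193 named genes (grey line) and the 12754 genes Present on at least 1 array (dashed line), with the axis drawn from -4 to 4. The step line lies right of both grey lines over most of its range, with medians of 0.64 in transgenic and 0.67 in wild-type peritoneum.

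All 6 measured genes of the classical arm, which encode the recognition molecule C1q, its proteases and C2, were Present on all 4 arrays and higher with chlorhexidine in both genotypes. Of these, 2 were 2-fold higher in transgenic and 5 in wild-type peritoneum, against 2.67% and 5.77% of all named genes in those genotypes, with median log2 differences of 0.81 in Tg and 1.17 in WT. C1qa, a chain of C1q, had signals of 1561 in CG_Tg and 909 in PBS_Tg, and of 1761 in CG_WT and 551 in PBS_WT. Both chlorhexidine arrays were above both vehicle arrays, with folds of 1.72 in transgenic and 3.19 in wild-type peritoneum. The signals of the chlorhexidine arrays lay close together, and the larger wild-type fold went with the lower PBS_WT signal: CG_WT was 1.94-fold above PBS_Tg.

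The other C1q chains were also higher on both chlorhexidine arrays, by their brightest probe sets. C1qb had signals of 1746 in CG_Tg and 1094 in PBS_Tg, and of 1780.4 in CG_WT and 877 in PBS_WT, which are folds of 1.60 in Tg and 2.03 in WT. C1qc had 1099 in CG_Tg and 655 in PBS_Tg, and 1148 in CG_WT and 503 in PBS_WT, which are folds of 1.68 in Tg and 2.28 in WT. By these probe sets the 3 chains were past 2-fold in wild-type peritoneum and below it in transgenic peritoneum. Against PBS_Tg the CG_WT folds of C1qb and C1qc were 1.63 and 1.75. Further C1qb probe sets, Present on all arrays, had log2 differences of 0.84 and 0.85 in Tg. In the same order they were 1.05 and 0.69 in WT, so the C1qb order of genotypes depends on the probe set. C1qb was not called in wild type with median centring, the pseudocount of 32 or the mean of probe sets. C1q is made mainly by macrophages and dendritic cells in tissues. The summed signal of 7 macrophage markers, all Present on all 4 arrays, was 8187 in CG_Tg and 5549 in PBS_Tg, and 8527 in CG_WT and 5224 in PBS_WT. The part of macrophage number in the C1q signals was not tested.

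C1ra and C1s1 encode the proteases carried by C1q. C1ra had signals of 667 in CG_Tg and 373 in PBS_Tg, and of 671 in CG_WT and 287 in PBS_WT, which are folds of 1.79 in Tg and 2.34 in WT. CG_WT was 1.80-fold above PBS_Tg, which is short of the threshold. C1s1, read by a probe set that the file's own description leaves unnamed, had 1803 in CG_Tg and 863 in PBS_Tg, and 1776 in CG_WT and 803 in PBS_WT. Its folds of 2.09 in Tg and 2.21 in WT were both past the threshold, and CG_WT was 2.06-fold above PBS_Tg. C2 is the protease that C1s cleaves. Its signals were 518 in CG_Tg and 198 in PBS_Tg, and 506 in CG_WT and 279 in PBS_WT, which are folds of 2.62 in Tg and 1.81 in WT. The order of these folds went with the vehicle array: CG_Tg was 1.85-fold above PBS_WT, and CG_WT was 2.56-fold above PBS_Tg.

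Cfb had the largest chlorhexidine difference in each genotype among the brightest probe sets of genes Present on any array. In wild-type peritoneum further probe sets of C3ar1 and C5ar1 exceeded its log2 difference of 2.23, at up to 2.74 and 2.38. A dim second probe set of Saa1, Present in CG_Tg alone, exceeded Cfb in both genotypes, at 2.22 in Tg and 3.13 in WT. Cfb encodes factor B, the protease of the alternative arm. Its signals were 926 in CG_Tg and 235 in PBS_Tg, and 909 in CG_WT and 194 in PBS_WT. The folds were 3.93 in transgenic and 4.70 in wild-type peritoneum, and CG_WT was 3.86-fold above PBS_Tg. The genotypes lay close together at each treatment. Cfp encodes properdin, which stabilises the alternative arm's enzyme on surfaces and is stored by leukocytes. It had 227 in CG_Tg and 159.7 in PBS_Tg, and 251 in CG_WT and 140.4 in PBS_WT, which are folds of 1.42 in Tg and 1.79 in WT and short of the threshold.

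In the lectin arm, Fcna was the only one of the 5 genes that was 2-fold higher. The shares of all named genes were 2.67% in Tg and 5.77% in WT. It encodes ficolin A, a sugar-binding starter of the arm that mouse macrophages and liver make. Its signals were 507 in CG_Tg and 176 in PBS_Tg, and 235 in CG_WT and 108 in PBS_WT, which are folds of 2.89 in Tg and 2.17 in WT. The transgenic array was the brighter at each treatment, and CG_WT was 1.34-fold above PBS_Tg, so the wild-type call depends on which vehicle array it is set against. Colec12, a scavenger receptor collectin, had 103 in CG_Tg and 67.1 in PBS_Tg, and 115 in CG_WT and 74.2 in PBS_WT.

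Masp1, whose protein is a protease of the lectin arm, had no settled direction. By its brightest probe set, the only one of 5 Present on all arrays, it had 27.6 in CG_Tg and 35.2 in PBS_Tg, and 46.6 in CG_WT and 77.1 in PBS_WT, which is 1.28-fold lower with chlorhexidine in Tg and 1.65-fold lower in WT. The other 4 probe sets pointed the opposite way, with log2 differences of at least 0.08 in Tg and at least 0.30 in WT, and CG_WT was 1.33-fold above PBS_Tg by the brightest. Fcnb and Mbl2, a ficolin of myeloid cells and a liver lectin, were not Present on any array. Their signals ranged from 9.50 to 15.8 and from 0.505 to 6.09.

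The measured genes of the terminal arm, whose proteins build the membrane pore, were dim. Hc, which encodes complement C5, was not Present on any array, with signals of 2.11 to 8.59. C6, a later pore component, had 35.2 in CG_Tg and 38.6 in PBS_Tg, and 24.3 in CG_WT and 16.3 in PBS_WT, where it was not Present. It was not 2-fold different with chlorhexidine in either genotype.

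None of the 8 regulators was called 2-fold higher or lower in either genotype with the main settings. Of all named genes, 2.67% were higher and 0.978% lower in Tg, and 5.77% higher and 3.46% lower in WT. The 8 genes are too few to tell apart from those shares. The median log2 differences of the regulators were 0.29 in transgenic and 0.19 in wild-type peritoneum. Serping1, which encodes the inhibitor of C1r and C1s, had 4755 in CG_Tg and 2764 in PBS_Tg, and 4478 in CG_WT and 2691 in PBS_WT, which are folds of 1.72 in Tg and 1.66 in WT. Vtn, which encodes vitronectin, an inhibitor of pore assembly, had 205 in CG_Tg and 122 in PBS_Tg, and 218 in CG_WT and 136 in PBS_WT. These soluble inhibitors were higher on both chlorhexidine arrays, short of 2-fold, but with quantile normalization Serping1 was called in wild-type peritoneum, at a log2 difference of 1.04. The summed signal of 6 fibroblast markers was 18034 in CG_Tg and 11984 in PBS_Tg, and 21354 in CG_WT and 11408 in PBS_WT, and their part in these signals was not tested. These markers differed among themselves: Col1a1 had folds of 4.04 in Tg and 5.44 in WT, and Dcn 1.15 in Tg and 1.34 in WT.

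Regulators held on cell membranes differed less or ran lower. Cd59a, which blocks the pore on host cells, had 239 in CG_Tg and 423 in PBS_Tg, and 215 in CG_WT and 339 in PBS_WT, which is 1.77-fold lower with chlorhexidine in Tg and 1.58-fold lower in WT. With the deposited scaling it was called 2-fold lower in transgenic peritoneum, at a log2 difference of -1.03. Cd55, which speeds the decay of the activating enzymes, had 349.8 in CG_Tg and 314 in PBS_Tg, and 326 in CG_WT and 304 in PBS_WT. Cr1l, known as Crry, a rodent membrane inhibitor, had 292 in CG_Tg and 235 in PBS_Tg, and 298 in CG_WT and 236 in PBS_WT. The spread of Cd55 and Cr1l over the 4 arrays was smaller than that of any gene called above.

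Clu, Cd46 and Cfi had opposite signs in the genotypes with the main scaling. Clu, which encodes clusterin, a chaperone that binds the forming pore, had 2564 in CG_Tg and 1827 in PBS_Tg, and 1756 in CG_WT and 1858 in PBS_WT. CG_Tg alone was high. The wild-type log2 difference of Clu was -0.08, and it ranged from -0.32 to 0.17 over the scalings, so its sign is not settled. Cd46, a cofactor for cleavage that mice express mainly in testis, was dim, with 23.0 in CG_Tg and 19.0 in PBS_Tg, and 11.8 in CG_WT, where it was not Present, and 29.3 in PBS_WT, all below the signal limit for a call. Without that limit Cd46 was called 2-fold lower in wild-type peritoneum. Cfi, the protease that works with such cofactors, was dimmer still, with signals of 7.38 to 11.4.

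Both anaphylatoxin receptors were 2-fold higher in both genotypes. They are G protein-coupled receptors of myeloid cells for the small fragments that complement cleavage releases. C3ar1 had 254 in CG_Tg and 93.3 in PBS_Tg, and 275 in CG_WT and 84.2 in PBS_WT. The folds were 2.72 in Tg and 3.27 in WT, and CG_WT was 2.95-fold above PBS_Tg. C3ar1 has 3 probe sets, whose log2 differences were 1.68, 1.30 and 1.44 in transgenic and 2.40, 2.74 and 1.71 in wild-type peritoneum. C5ar1 had 86.9 in CG_Tg and 36.1 in PBS_Tg, and 102 in CG_WT and 29.3 in PBS_WT, where the detection call was Marginal. Its folds were 2.40 in transgenic and 3.48 in wild-type peritoneum, the latter to the Marginal signal, and CG_WT was 2.82-fold above PBS_Tg.

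Among the acute phase genes, 2 of 9 were 2-fold higher in each genotype, Saa3 in both. The shares of all named genes were 2.67% in Tg and 5.77% in WT. Saa3 is the serum amyloid that macrophages and fat make locally in the mouse. Its signals were 805 in CG_Tg and 347 in PBS_Tg, and 539 in CG_WT and 197 in PBS_WT, which are folds of 2.32 in Tg and 2.73 in WT. The transgenic array was brighter at each treatment, and CG_WT was 1.55-fold above PBS_Tg. Saa1, a liver serum amyloid, is read by a brightest probe set that the file's description names Saa2, so that probe set may not tell the pair apart. By it Saa1 was dim, with 27.0 in CG_Tg and 9.83 in PBS_Tg, and 15.9 in CG_WT and 10.5 in PBS_WT, and lay below the signal limit for a call. A second Saa1 probe set, Present in CG_Tg alone, was dimmer. It had 17.2 in CG_Tg and 3.68 in PBS_Tg, and 7.18 in CG_WT and 0.819 in PBS_WT.

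Cp and Lbp were each past 2-fold in 1 genotype by their brightest probe sets. Cp encodes ceruloplasmin, a copper-binding ferroxidase, and had 452 in CG_Tg and 169.8 in PBS_Tg, and 340.3 in CG_WT and 218 in PBS_WT, which are folds of 2.66 in Tg and 1.56 in WT. The CG_WT signal was also past 2-fold above PBS_Tg, and the mean over its probe sets was not 2-fold higher in transgenic peritoneum. By further probe sets Present on all arrays, the log2 differences of Cp were 0.61, 0.82, 0.54, 0.04 and 0.71 in Tg. In the same order they were 1.28, 1.76, 1.04, 0.53 and 0.28 in WT. Which genotype had the larger Cp difference thus depends on the probe set. Lbp encodes the lipopolysaccharide-binding protein and had 617 in CG_Tg and 352 in PBS_Tg, and 655 in CG_WT and 288 in PBS_WT, which are folds of 1.76 in Tg and 2.27 in WT. For both genes the chlorhexidine arrays lay above both vehicle arrays. CG_WT was 1.86-fold above PBS_Tg for Lbp, short of the threshold, and its second probe set, dim but Present on all arrays, had log2 differences of -0.01 in Tg and -0.21 in WT.

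Orm1 was the only gene of the 34 called 2-fold lower with chlorhexidine, in wild-type peritoneum and with the main settings. It encodes an orosomucoid, a carrier of lipophilic compounds made by liver and fat. It had 122 in CG_Tg and 242 in PBS_Tg, and 62.4 in CG_WT and 224 in PBS_WT, which is 1.99-fold lower with chlorhexidine in Tg and 3.59-fold lower in WT. Both vehicle arrays lay above both chlorhexidine arrays. Orm1 was also called in transgenic peritoneum with quantile normalization, median centring or the deposited scaling. The summed signal of 5 adipocyte markers was 8277 in CG_Tg and 11404 in PBS_Tg, and 6141 in CG_WT and 10938 in PBS_WT, and the part of fat in the Orm1 signal was not tested.

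The remaining acute phase genes were not called 2-fold different with chlorhexidine with the main settings, and Hp was called higher in wild-type peritoneum with the deposited scaling. Hp encodes haptoglobin, which binds free haemoglobin, and had 1442 in CG_Tg and 1257 in PBS_Tg, and 796 in CG_WT and 434 in PBS_WT. Its chlorhexidine folds were 1.15 in Tg and 1.83 in WT, and both transgenic arrays lay above both wild-type arrays. Ptx3, a pentraxin made by myeloid and stromal cells, had 168 in CG_Tg and 132 in PBS_Tg, and 157 in CG_WT and 98.6 in PBS_WT. Lrg1, a leucine-rich glycoprotein, had 316 in CG_Tg and 286 in PBS_Tg, and 219 in CG_WT and 223 in PBS_WT, so it followed genotype more than treatment. Hpx, which encodes the haem carrier hemopexin, was Present in CG_Tg alone, with signals of 7.49 to 14.65 over the arrays.

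Of the hepatocyte markers, 4 of 6 were not Present on any array. Their summed signal was 2516 in CG_Tg and 1914 in PBS_Tg, and 978 in CG_WT and 1650.4 in PBS_WT, and nearly all of it was Cyp2e1, with 2479 in CG_Tg and 1853 in PBS_Tg, and 957 in CG_WT and 1613 in PBS_WT. Alb, which encodes the liver's albumin, ranged from 9.35 to 31.1, so the sum describes Cyp2e1 and not the other markers. The summed signal of 7 neutrophil markers, of which 4 were Present on any array, was 2191 in CG_Tg and 243 in PBS_Tg, and 459 in CG_WT and 100.6 in PBS_WT. In CG_Tg most of this sum was S100a8, at 1066, and S100a9, at 930. These genes and Csf3r were 2-fold higher with chlorhexidine in both genotypes. Ngp was 1.96-fold higher in Tg and 1.83-fold lower in WT, short of the threshold. All 9 mesothelial markers were Present on all arrays, with a summed signal of 628 in CG_Tg and 576 in PBS_Tg, and 423 in CG_WT and 717 in PBS_WT. Of them, Upk3b was 3.36-fold and Krt19 4.01-fold lower with chlorhexidine in wild-type peritoneum, and Wt1 was 2.40-fold higher in transgenic peritoneum. The log2 difference lay above 0 for 6 of the 9 in Tg and for 2 in WT, with medians of 0.31 in Tg and -0.71 in WT. All 4 B and plasma cell markers were 2-fold lower with chlorhexidine in both genotypes, and their summed signal was 211 in CG_Tg and 1725 in PBS_Tg, and 131 in CG_WT and 4047 in PBS_WT. The 5 skeletal muscle markers, all Present on all arrays, had the largest of the marker sums. It was 42169 in CG_Tg and 39740 in PBS_Tg, and 42038 in CG_WT and 48790 in PBS_WT. The part of these cells in the signals of the 34 genes was not tested.

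**Figure D3:**
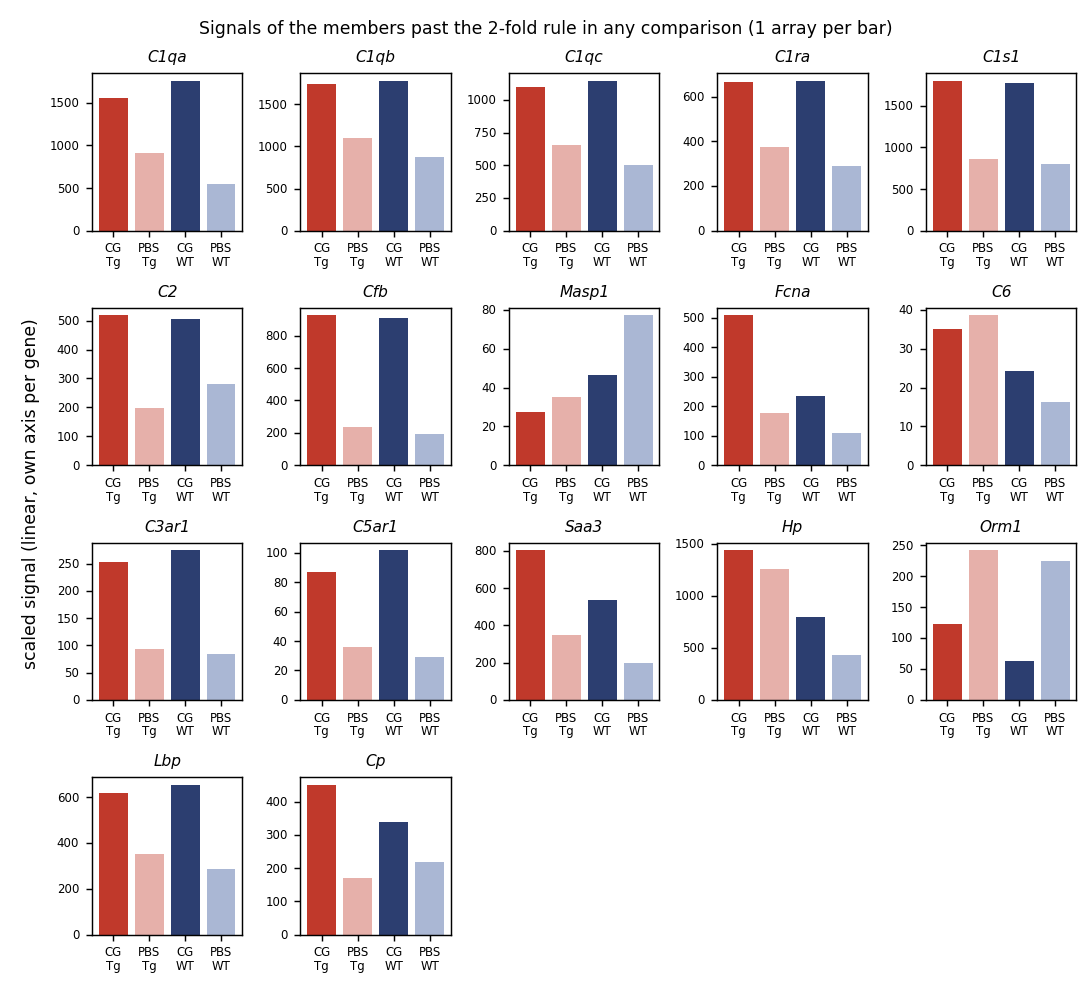
Scaled signal on each array (linear axis from 0, a separate axis per gene, 1 bar per array) for the genes that were 2-fold different in any comparison, with dark bars for chlorhexidine and light bars for vehicle. In most panels both dark bars exceed both light bars; Orm1 shows the opposite, and Hp, C6 and Masp1 separate by genotype.

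Promoter sequence was available for 4 of the genes that were 2-fold higher in both genotypes and have 1 listed start, and it is shown to let their regulatory bases be read beside the values. The sequences are from RefSeq, mouse build GRCm38.p6, and run 5' to 3' on the gene's strand, which is the minus strand for each, over 250 bases before and 50 after the start. Saa3 is at chr7:46715627-46715926, Fcna at chr2:25627925-25628224, C3ar1 at chr6:122856108-122856407 and C5ar1 at chr7:16259289-16259588. Capitals mark matches, on either strand, to the letters TTNNGNAA (C/EBP), TTCNNNGAA (STAT), GGG and CC with any 5 bases between them (NF-kB), or TTTC and TTTC with any 2 bases between them (interferon response).
Saa3: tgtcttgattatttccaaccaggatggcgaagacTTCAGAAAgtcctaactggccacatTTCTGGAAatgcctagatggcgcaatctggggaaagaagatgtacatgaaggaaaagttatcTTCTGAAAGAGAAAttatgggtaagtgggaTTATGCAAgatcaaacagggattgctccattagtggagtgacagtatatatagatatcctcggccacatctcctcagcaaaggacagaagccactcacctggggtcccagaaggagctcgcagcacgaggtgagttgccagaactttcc
Fcna: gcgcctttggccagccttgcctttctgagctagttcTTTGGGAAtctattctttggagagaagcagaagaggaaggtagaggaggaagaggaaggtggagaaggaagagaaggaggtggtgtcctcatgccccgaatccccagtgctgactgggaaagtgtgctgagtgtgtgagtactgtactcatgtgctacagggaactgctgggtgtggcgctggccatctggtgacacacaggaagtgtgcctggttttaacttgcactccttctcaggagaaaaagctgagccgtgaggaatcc
C3ar1: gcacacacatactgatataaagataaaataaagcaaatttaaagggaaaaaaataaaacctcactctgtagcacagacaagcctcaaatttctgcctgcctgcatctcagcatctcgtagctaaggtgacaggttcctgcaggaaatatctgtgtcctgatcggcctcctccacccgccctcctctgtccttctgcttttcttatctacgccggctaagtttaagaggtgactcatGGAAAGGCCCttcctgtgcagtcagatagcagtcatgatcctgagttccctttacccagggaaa
C5ar1: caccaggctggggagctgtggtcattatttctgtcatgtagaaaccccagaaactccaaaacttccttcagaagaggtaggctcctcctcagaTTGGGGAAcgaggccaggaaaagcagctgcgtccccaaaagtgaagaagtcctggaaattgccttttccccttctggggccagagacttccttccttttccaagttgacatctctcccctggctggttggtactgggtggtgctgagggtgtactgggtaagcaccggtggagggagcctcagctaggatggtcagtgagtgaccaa
The Saa3 window holds 4 C/EBP matches and 1 interferon response match, which overlaps a C/EBP match. Fcna and C5ar1 hold 1 C/EBP match each, and C3ar1 holds 1 NF-kB match. C/EBP, STAT and NF-kB are the textbook activators of acute phase genes, of which only Saa3 is shown here, and letters this short occur often. Of 25 promoters of 23 of the genes, 60% hold the NF-kB letters and 60% the C/EBP letters, against 50.8% and 40.7% of all 32851 mouse promoters in the table. The STAT letters are in 8% against 8.30%, and the interferon response letters in 16% against 3.44%. That 16% is 4 promoters, those of Cd46, Cd59a, Saa3 and Vtn. A match describes the sequence only.

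The transgene comparison asks whether the genes differed with brain natriuretic peptide at a given treatment, and few did. Under chlorhexidine 1 of the 34 genes was 2-fold different between genotypes, against 1.23% of all named genes, and under vehicle 3 were, against 1.02%. The median log2 difference of transgenic over wild type was 0.03 under chlorhexidine and 0.23 under vehicle, against -0.01 under chlorhexidine and -0.04 under vehicle over all named genes. Under chlorhexidine the gene was Fcna, 2.16-fold higher in CG_Tg than in CG_WT. Under vehicle, Hp was 2.90-fold higher in PBS_Tg than in PBS_WT, C6 2.37-fold higher, and Masp1 2.19-fold lower. The C6 fold is to a PBS_WT signal that was not Present.

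These differences ran the same way at the other treatment, short of 2-fold. Hp was 1.81-fold higher in CG_Tg than in CG_WT, and Fcna 1.62-fold higher in PBS_Tg than in PBS_WT. Taken with its sign, the log2 difference with chlorhexidine was higher in wild type for 21 of 34 genes, against 8824 of 18193 named genes. The median of the transgenic minus the wild-type difference was -0.16 on the log2 scale, against 0.02 over all named genes. Masp1 was not called with the deposited scaling, with a pseudocount of 32 or with the mean of its probe sets, and C6 was not called with the pseudocount. The genotype comparison under vehicle and the chlorhexidine comparison in wild type share the PBS_WT array, and whether the response differs between genotypes was not tested.

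**Figure D4:**
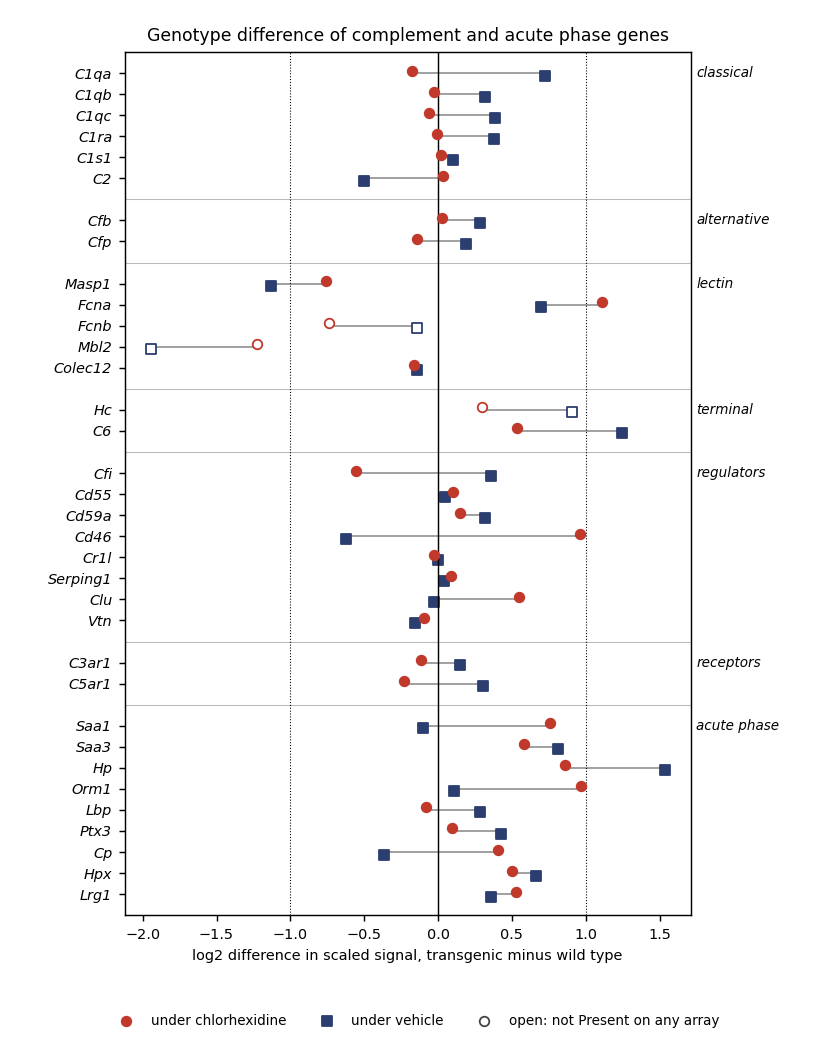
Log2 difference in scaled signal between transgenic and wild type for each of the 34 genes, grouped by arm, with circles under chlorhexidine and squares under vehicle; dotted lines mark 2-fold and open symbols mark genes not Present on any array. Most symbols lie within 2-fold; Fcna under chlorhexidine and Hp and C6 under vehicle lie past it on the right, and Masp1 under vehicle lies past it on the left.

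Fitting genotype and treatment together gives a test over all 4 arrays, with 1 residual degree of freedom before limma's moderation across genes. Its error is the difference in response between the genotypes and not a spread between replicates. The PBS_WT array, which stood apart, enters both the effect and this error. It called 12 of the 12754 genes, 0.0941%, at a Benjamini-Hochberg adjusted p under 0.05, and 0 of the 31 genes tested here. At an unadjusted p under 0.05 it listed 20 of the 31, against 23.0% of all genes tested. The gene closest to the threshold was Cfb, with a log2 difference of 2.10 (SE 0.220) and a limma adjusted p of 0.0506. C3ar1 and C5ar1 followed at limma adjusted p of 0.0638 and 0.0699, and Saa3 and Fcna at 0.0727 and 0.0769. Over the settings tried, the smallest limma adjusted p among the genes ranged from 9.02e-12, with an intensity trend, to 0.399, with all 18193 genes tested.

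Genes that act beside these were read from lists of other complement genes, other acute phase genes and their inducers. Of 19 other complement genes, 2 were 2-fold higher and 1 lower in transgenic peritoneum, and 3 higher and 0 lower in wild-type peritoneum. Of all named genes, 2.67% were higher and 0.978% lower in Tg, and 5.77% higher and 3.46% lower in WT. No array called 9 of the 19 Present. Vsig4, a complement receptor of resident macrophages, had 148 in CG_Tg and 32.3 in PBS_Tg, and 73.8 in CG_WT and 17.9 in PBS_WT. Itgam, a chain of complement receptor 3, had 132 in CG_Tg and 61.8 in PBS_Tg, and 124 in CG_WT and 27.3 in PBS_WT. Itgax, a chain of complement receptor 4, ran lower, with 31.4 in CG_Tg and 74.9 in PBS_Tg, and 54.4 in CG_WT and 96.9 in PBS_WT. Cd93, a receptor once taken for a C1q receptor, had 616 in CG_Tg and 437 in PBS_Tg, and 876 in CG_WT and 296 in PBS_WT, and was 2-fold higher in wild-type peritoneum.

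Of 21 other acute phase genes, 11 were not Present on any array. In both genotypes 0 were 2-fold lower, against 0.978% of all named genes in Tg and 3.46% in WT. In each genotype 3 were 2-fold higher, against 2.67% of all named genes in Tg and 5.77% in WT. They were the same 3: Serpina3n, a protease inhibitor, Lcn2, which sequesters bacterial iron carriers, and Mt2, a metal-binding metallothionein. Serpina3n had 1202 in CG_Tg and 233 in PBS_Tg, and 761 in CG_WT and 89.3 in PBS_WT, which are folds of 5.16 in Tg and 8.52 in WT. Lcn2 had 315 in CG_Tg and 65.5 in PBS_Tg, and 122 in CG_WT and 34.9 in PBS_WT, which are folds of 4.81 in Tg and 3.50 in WT. Mt2 had 3207 in CG_Tg and 1472 in PBS_Tg, and 3019 in CG_WT and 1479 in PBS_WT.

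Of 18 inducers, 4 were 2-fold higher in transgenic and 5 in wild-type peritoneum, against 2.67% and 5.77% of all named genes. In both genotypes 0 were lower, against 0.978% in Tg and 3.46% in WT, and 2 of the 18 were not Present on any array. Il6 encodes the main inducer of liver acute phase genes. Its signals were 40.7 in CG_Tg and 18.5 in PBS_Tg, and 139 in CG_WT and 7.02 in PBS_WT, where it was not Present. The folds were 2.20 in Tg and 19.9 in WT, and the wild-type fold is uncertain because the PBS_WT signal was undetected. CG_WT was the brightest array. Osmr, a receptor chain for oncostatin M, had folds of 2.09 in transgenic and 2.82 in wild-type peritoneum. Socs3, the feedback inhibitor of this signalling, had folds of 2.37 in Tg and 2.26 in WT. Il1r1, the receptor for interleukin 1, had folds of 3.45 in transgenic and 6.73 in wild-type peritoneum, and neither vehicle array called it Present. Il1b, one of its ligands, had folds of 1.57 in Tg and 3.76 in WT.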

How the data were processed

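Peritoneal RNA of 4 groups was measured on 1 Affymetrix mouse array each. Per the file headers, the deposited values are a signal intensity, a detection call and a detection p-value for each of 45101 probe sets; the algorithm is not given in the sources used here, and the deposited series table holds the same intensities, with 0 values differing. The 64 control probe sets were left out. Each array was multiplied so that its mean after trimming 2% at each end became 101.65, a floor of 0.1 was set and differences were taken on the log2 scale. Gene symbols come from the platform annotation, updated through RefSeq (GRCm38.p6): 34945 probe sets have 1 symbol, 932 several and 9160 none. Of several probe sets, the one brightest on average stands for the gene. Where the dimmer array did not call the gene Present, the fold is to its signal there, or to that array's lowest Present signal where higher. Such a fold is not a bound. No counts lie behind the signals, and the number of arrays limits the precision. One array per group allows no test between 2 groups; limma 3.58.1 (R 4.3.3) fitted genotype and treatment over all 4 arrays, for genes Present on at least 1, with Benjamini-Hochberg adjustment at 0.05. The spread between arrays may be technical. The fit was tested on simulated data. The genes named are the listed genes, and beside them up to 6 genes of each pathway list that were 2-fold different in either genotype. The members, lists and tests were chosen with earlier results of these data known. Alternatives were the scaling (quantile, median centring, deposited), a pseudocount of 32, the choice of probe set, the filter on dim probe sets, the other vehicle array and the limma settings.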

Additional observations from a re-analysis of the deposited data

Results flagged for a closer look

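For 6 of the 34 genes, 5 of them Present on at least 1 array, the chlorhexidine difference pointed in opposite directions in the genotypes, on 1 array each, and the difference between genotypes was not tested. The sixth, Fcnb, was not Present on any array. As the transgenic minus the wild-type log2 difference, it was 1.58 for Cd46, -0.91 for Cfi, -0.71 for C6, 0.57 for Clu and 0.17 for Lrg1. The wild-type value of Clu, -0.08, was 0.17 with quantile normalization or the deposited scaling, so its opposite sign depends on the scaling. Cd46, Cfi and C6 were dim and not Present on 1 array each, and for Lrg1 the value is smaller than the spread between probe sets of a gene, with an SD of 0.311 in transgenic and 0.460 in wild-type peritoneum.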

How the results depend on the processing

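The median chlorhexidine difference of the 34 genes kept its sign under all alternatives, from 0.44 to 0.93 on the log2 scale in transgenic and from 0.44 to 0.92 in wild-type peritoneum. Median centring moved the median of all named genes to -0.26 in wild type, and the deposited scaling moved it to -0.21 in transgenic and 0.22 in wild-type peritoneum and to 0.38 between genotypes under vehicle. Relative to that median the 34 genes lay 0.64 to 0.68 higher in transgenic and 0.70 higher in wild-type peritoneum under the 4 scalings. Higher calls made up 73.2% of all calls in transgenic peritoneum, against 50.7% with the deposited scaling, and 62.5% in wild type, against 37.1% with median centring and 83.3% with the deposited scaling. Genes 2-fold higher in wild type numbered 5 with median centring and 6 against the other vehicle array, in place of 11. Of all 18193 named genes, 723 and 922 were then called higher, in place of 1049. Genes 2-fold lower in transgenic peritoneum numbered 1 with quantile normalization, median centring, no filter on dim probe sets or the other vehicle array and 2 with the deposited scaling, in place of 0, and in wild type 3 without the filter, in place of 1. The added genes were Orm1 (the 3 scalings), Cd59a (deposited scaling), Masp1 (other vehicle array), Mbl2 (no filter) and, in wild type, Mbl2 and Cd46. Of all named genes, 200 were lower in transgenic peritoneum with quantile normalization or median centring, in place of 178. There were 320 with the deposited scaling, 313 against the other vehicle array and 1708 without the filter. In wild type 2354 were lower without the filter, in place of 629. Between genotypes under chlorhexidine, 2 genes were called with quantile normalization, median centring or no filter, in place of 1, and the median reversed to -0.01 with the deposited scaling. Under vehicle, 5 were called with the deposited scaling and 1 with the pseudocount, in place of 3, and the median moved to 0.65 with the deposited scaling. Of all named genes, 458 were higher and 7 lower with the deposited scaling, and 39 and 12 with the pseudocount, in place of 122 and 64. The limma fit called 18 of the genes with an intensity trend or the pseudocount, 6 with the deposited scaling and 1 with median centring, in place of 0, and 0 to 2483 of all genes. Of 880 values of single genes under alternatives, 772 moved by less than the spread between probe sets. Median centring and the deposited scaling shift the genes of a comparison by a common amount, so these values are not separate checks. The cause of these changes was not tested. No paired analysis was possible because each group has 1 array; genotype enters the limma fit as a term. Of 15 genes with several probe sets, 12 had several Present on all arrays, and these had the same sign for 8 in transgenic and 7 in wild-type peritoneum. Dim genes such as Cfi and C6 are limited by signal near background.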
